A study of Homo sapiens with 8 samples.

Results

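SKBR3 cells given trastuzumab were compared with SKBR3 cells given PBS on the 3 distinct SKBR3 arrays of a series that labels 8 arrays. The arrays used were trastuzumab replicates 1 and 2 and PBS replicate 2. The file labelled SKBR3 PBS replicate 1 holds the same values in every spot as the file labelled BT474 PBS replicate 1, so that the 8 labels cover 7 distinct files, and it was left out. Its array had 247 miRNAs detected, beside 248 to 256 on the other BT474 arrays and 201 to 218 on the other SKBR3 arrays. It lies in slide column 2, with the other BT474 arrays in columns 1 and 2 and the other SKBR3 arrays in columns 3 and 4. Fits on the 4 labelled SKBR3 arrays may therefore count a BT474 control as SKBR3 PBS. Of the 2006 human miRNAs on the array, 188 (9.37%) were detected on all 3 arrays, 227 on at least 1 and 1779 on none. SKBR3 is a breast adenocarcinoma line with high HER2 (ERBB2), and trastuzumab is an antibody against HER2. Treatment lasted 144 h, at 6 μg/mL for trastuzumab and with PBS alone for the controls, and both groups were grown in McCoy's 5A medium with serum and antibiotics. The replicates are described as biological, and all come from 1 cell line. The labels list SKBR3 as positive for the progesterone receptor and the study's methods as negative. The other line, BT474, had the same dose and time and was used for an estimate of the spread and for a comparison of the lines. The study's methods list BT474 as positive for HER2 and for the estrogen and progesterone receptors. It was grown in RPMI medium with serum, antibiotics and bovine insulin, so that line and medium cannot be told apart in that comparison.

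A miRNA is a short RNA that is cut from a hairpin transcript and loaded into an Argonaute protein. It pairs with mRNAs mainly through its seed, bases 2 to 8 from the 5′ end, and lowers their translation and stability, so that miRNAs with 1 seed form a family with overlapping targets. Many hairpins lie in clusters that are transcribed together, and either arm of a hairpin, 5p or 3p, can give the mature strand. In HER2-driven breast cancer, miR-21 is known as an oncogenic miRNA, let-7 and miR-34 as growth-restraining ones, and several miRNAs are reported to act on HER family mRNAs.

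Most SKBR3 miRNAs differed little between trastuzumab and PBS: 153 of the 188 (81.4%) had a log2 change under 0.5 in size, and the families of let-7, miR-17 and miR-30 lay close to 0. The clearest differences were increases. miR-766-3p, miR-4725-5p, miR-4481, miR-181d, miR-4750-5p, miR-4701-3p and miR-574-3p were 2.32 to 6.50 times as high with trastuzumab, and miR-3196 was 2.50 times lower. Of these, miR-181d, miR-4750-5p, miR-4701-3p and miR-574-3p passed an adjusted p under 0.05 in limma, and the others did not. The 6.50 is that of miR-766-3p, the dimmest of the 188 with PBS, whose log2 change was 0.70 with another background correction. All rest on 1 PBS array, and treatment and slide row cannot be told apart. A further 11 miRNAs, led by miR-574-5p, were detected with trastuzumab and not with PBS, and 7 dim ones the other way round.

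The mature sequences of the miRNAs past the study's thresholds (fold change above 2 at p under 0.05, not adjusted) are shown first, since the largest differences rest on them. They come from RefSeq (build GRCh38.p14), which gave a sequence for 159 of the 188 miRNAs, 5 of them through a later name. The seed is in capitals. No sequence was matched for miR-766-3p. The lines run from the largest increase to the single decrease.
miR-4725-5p: aGACCCUGcagccuucccacc
miR-4481: gGAGUGGGcuggugguu
miR-181d: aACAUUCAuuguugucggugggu
miR-4750-5p: cUCGGGCGgaggugguugagug
miR-4701-3p: aUGGGUGAuggguguggugu
miR-574-3p: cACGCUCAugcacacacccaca
miR-1305: uUUUCAACucuaaugggagaga
miR-1587: uUGGGCUGggcuggguuggg
miR-1268b: cGGGCGUGguggugggggug
miR-4442: gCCGGACAagagggagg
miR-1268a: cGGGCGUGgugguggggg
miR-3196: cGGGGCGGcaggggccuc

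These 12 sequences hold 11 different seeds, and only miR-1268a and miR-1268b share theirs: the 18 bases of miR-1268a are the first 18 of the 20 of miR-1268b. The other seeds each occur once among them. The hairpins lie apart as well. miR-574-3p is at chr4:38868092-38868113 (+ strand), inside the spans of FAM114A1 and TLR6. miR-181d is at chr19:13874910-13874932 (+ strand), inside the span of NANOS3. miR-4701-3p is at chr12:48771980-48771999 (- strand) in ADCY6, and miR-4750-5p at chr19:49888177-49888198 (+ strand) in TBC1D17. miR-4481 is at chr10:12653181-12653197 (- strand) in CAMK1D, miR-3196 at chr20:63238788-63238805 (+ strand) in BIRC7, and miR-4725-5p at chr17:31575281-31575301 (+ strand).

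Detected miRNAs numbered 203 on the PBS array, 218 on trastuzumab array 1 and 201 on trastuzumab array 2, and the lowest detected signals were 19.3, 26.8 and 28.3 intensity units. A miRNA that is not detected is listed at 0.1. The trastuzumab arrays were brighter over the 188 miRNAs, by a median of 0.44 and 0.27 on the log2 scale before normalization, and changes below are relative to that shift. All arrays lie on 1 slide, the PBS array in row 2 and both trastuzumab arrays in row 1, so that treatment and slide row cannot be told apart. Of the epithelial markers, miR-200c-3p and miR-141-3p were detected on all 3 arrays and the other 5 of 7 on none. All 20 markers of blood, fibroblast or smooth muscle, endothelium, skeletal muscle, liver and neurons were undetected on the 3 arrays.

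Signals are the summed intensity per miRNA as deposited, and log2 changes come from quantile normalized values (trastuzumab mean minus PBS) tested with limma. The PBS array is a single array and was assumed to vary like the trastuzumab arrays, which left 1 residual degree of freedom. Over the 188 miRNAs the median log2 change was -0.08, with the 5th and 95th percentiles at -0.62 and 1.08. Both trastuzumab arrays lay above the PBS array for 46 miRNAs, both lay below it for 89, and 53 overlapped. The changes ran from -1.32 to 2.70, so that higher miRNAs were fewer and reached further from 0.

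At the study's thresholds 13 of the 188 miRNAs (6.91%) were called, of which 12 were higher (6.38%) and 1 was lower (0.532%). At a Benjamini-Hochberg adjusted p under 0.05, limma called 5 higher (2.66%) and 0 lower (0.00%), against 26 higher and 36 lower at an unadjusted p under 0.05. The methods' t-test, run here with equal variances, called 0 in either direction after adjustment and 18 at an unadjusted p under 0.05. The paper names a random variance model for its t-test, which was not run here. Quantile normalization gave both trastuzumab arrays the same value for 28 of the 188 miRNAs, among them 3 of the 5 adjusted calls, so that their spread comes from the other miRNAs. The t-test gave no p-value for these 28, which could not be called by it. With scaling to the 75th percentile, which leaves no such ties, 22 were higher (11.7%) and 6 lower (3.19%) at an adjusted p under 0.05, and all 13 miRNAs of the study's thresholds were among them. That fit gave every miRNA the same SE of 0.22, so that its p-values rest on a spread common to all miRNAs. With the spread taken from 6 arrays of both lines, 15 of 175 were higher (8.57%) and 10 lower (5.71%), and 8 of the 11 calls measured there passed. That fit has 2 residual degrees of freedom, from the trastuzumab pair of each line. Each line has 1 PBS array in it, so that the spread between PBS arrays is not measured there either. With normexp background correction 2 were higher at the study's thresholds and 0 after adjustment, and the change of miR-766-3p became 0.70, that of miR-4442 0.09 and that of miR-34b-5p -0.017. With trastuzumab array 1 or 2 left out, SKBR3 had 1 array per treatment, over 176 and 178 miRNAs also measured in BT474. The spread then came from the BT474 trastuzumab arrays alone. Without array 1 and without array 2 the change of miR-181d was 1.65 and 1.61, and that of miR-4701-3p 1.31 and 1.31.

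**Figure D1:**
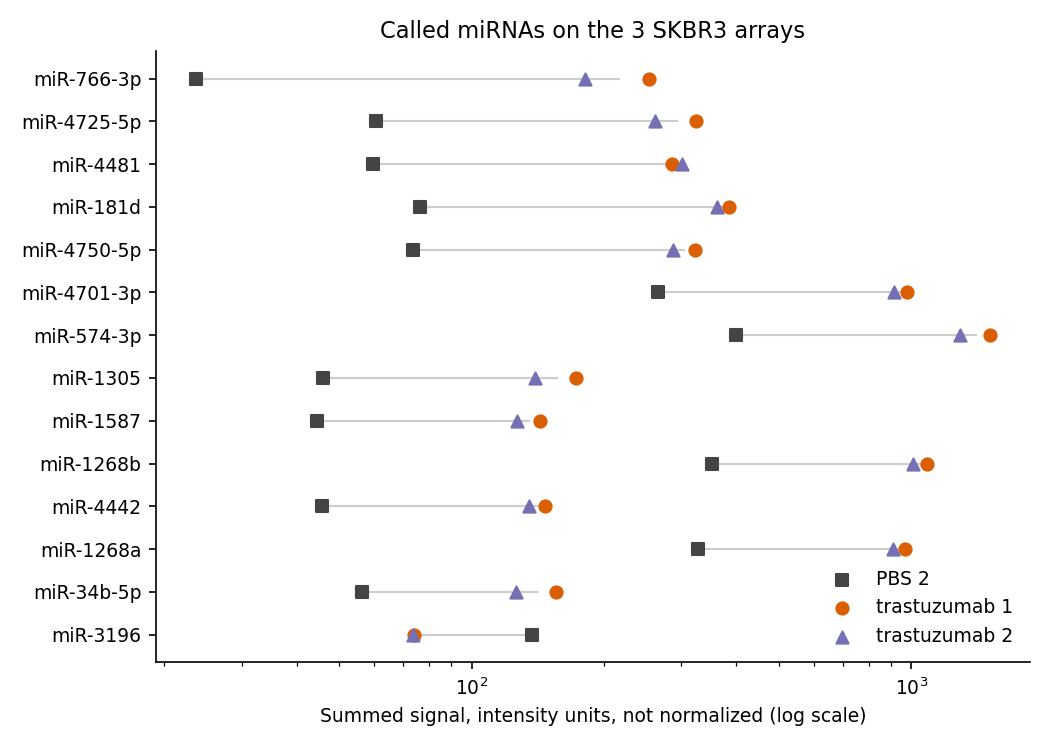
Summed signals (intensity units, log axis, not normalized) of the 14 miRNAs past either threshold on PBS array 2 (squares) and trastuzumab arrays 1 (circles) and 2 (triangles), with a grey line from the PBS signal to the trastuzumab mean. In 13 rows both trastuzumab signals lie above the PBS signal, and in the row of miR-3196 both lie below it.

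The largest difference was that of miR-766-3p, whose signal was 23.6 on the PBS array and 252 and 181 on the trastuzumab arrays. Its PBS signal was the lowest of all 188 on that array, and both trastuzumab signals lay far above it. The log2 change was 2.70 ± 0.11 (SE, limma; 95% confidence interval 2.04 to 3.36), with an adjusted p of 0.0573, and 0.0219 with the spread of 6 arrays. It was 0.70 with normexp, 1.32 with the deposited log2 values and 1.21 with the 4 labelled arrays, which add the shared file as SKBR3 PBS. All 4 of its probe sequences were higher.

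miR-181d is a member of the miR-181 family, which is known for its part in lymphocyte development. Its signal was 76.2 with PBS and 384 and 362.3 with trastuzumab. It rose by 1.57 ± 0.02 (SE), with an adjusted p of 0.049 in limma, and the change was 0.97 with normexp. The other detected members of the family did not move with it: miR-181a-5p gave 732, 1114 and 1010 units and a log2 change of 0.01, and miR-181b-5p gave 244, 357 and 325 units and a log2 change of -0.03. The sequences are shown because 1 base separates miR-181b-5p from miR-181d, C12U, counted from the 5′ end with the base of miR-181b-5p first.
miR-181a-5p: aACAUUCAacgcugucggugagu
miR-181b-5p: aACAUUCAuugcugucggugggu
miR-181d: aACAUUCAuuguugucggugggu
The seed is shared by all 3. miR-181a-5p differs from miR-181b-5p by A9U, C10U and A21G.

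miR-574-3p was the brightest of the increased miRNAs, with 399 units under PBS and 1509 and 1288 under trastuzumab, and its arrays did not overlap. It rose by 1.21 on the log2 scale (adjusted p = 0.042 in limma, 0.0177 with the spread of 6 arrays), and the change was 0.79 with the 4 labelled arrays. The 5p arm of the same hairpin was undetected with PBS and reached 220 and 236 units with trastuzumab, so that both arms were higher. A second hairpin, miR-4701 in ADCY6, also had both arms higher. miR-4701-3p gave 265 units with PBS and 979 and 911 with trastuzumab, and rose by 1.31 (adjusted p = 0.042). miR-4701-5p gave 281, 794 and 634 units, a log2 change of 0.78 (adjusted p = 0.145, and 9.91e-04 with 75th percentile scaling).

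Arms did not go together in every hairpin. Of 9 hairpins with both arms detected on all 3 arrays, miR-197 and miR-3162 had a higher 3p arm beside a 5p arm near 0. miR-197-3p gave 448.6 units with PBS and 1126 and 1040 with trastuzumab, a log2 change of 0.77, and miR-197-5p had a change of -0.06. miR-3162-3p had a change of 0.87 and miR-3162-5p of -0.04. Both 3p arms passed an adjusted p of 0.05 with 75th percentile scaling (0.00245 and 7.3e-04), and neither did in the quantile fit (0.0581 and 0.0565). In the other 7 hairpins the arms differed by 0.08 to 0.52 on the log2 scale, including miR-21, miR-17 and miR-31.

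The remaining calls were dimmer. miR-4725-5p gave 60.7 units with PBS and 324 and 261 with trastuzumab, a log2 change of 1.77 ± 0.09 (SE, adjusted p = 0.0665 in limma). miR-4481 gave 59.8, 286 and 301.2 units, a change of 1.74 ± 0.18 (adjusted p = 0.109). miR-4750-5p gave 73.7, 322 and 287 units and rose by 1.43 (adjusted p = 0.042). In each of these the trastuzumab signals lay close together and well above the PBS signal. With normexp the changes of the 3 were 0.63, 0.96 and 0.82. miR-1305 (46.0, 173 and 140 units), miR-1587 (44.5, 143 and 127), miR-1268b (353, 1084 and 1011), miR-4442 (45.8, 147 and 135) and miR-1268a (327, 965 and 906) had log2 changes of 1.01 to 1.19. Their adjusted p lay between 0.0565 and 0.135 in limma, and at 4.14e-05 or below with 75th percentile scaling. The change of miR-1305 was 0.22 with normexp and 0.63 with the deposited log2 values, and that of miR-4442 was 0.09 and 0.45. miR-34b-5p, of a family that p53 is known to induce, gave 56.5, 156 and 126 units and rose by 0.83 (adjusted p = 0.049), below the fold threshold, and the change was -0.017 with normexp and 0.33 with the deposited values. Its neighbour in the family, miR-34a-5p, gave 2423, 2869 and 2637 units and a change of -0.10.

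A single decrease passed the study's thresholds. miR-3196 gave 137 units with PBS and 74.1 and 73.5 with trastuzumab, and both of its probe sequences were lower. Its log2 change was -1.32 ± 0.10 (SE), with an adjusted p of 0.0815 in limma and 2.36e-07 with 75th percentile scaling. The change was -0.47 with normexp and -0.64 with the deposited log2 values, and the call at the study's thresholds was lost with both, without normalization and with the methods' t-test. The next largest, named after their values were seen, were miR-149-5p (105, 81.9 and 79.5 units, a log2 change of -0.91) and miR-4687-3p (147, 122 and 124 units, -0.82). The probe sequences of miR-149-5p disagreed, with 1 higher and 1 lower. Both lay below the fold threshold and passed an adjusted p of 0.05 with 75th percentile scaling (0.00245 and 0.0141).

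The calls were drawn from the dim and middle part of the signal range. Of the 63 dimmest miRNAs by PBS signal (23.6 to 154 units) 8 were higher and 1 lower at the study's thresholds. Of the next 62 (158 to 610 units) 4 were higher, and of the 63 brightest (613 to 27437 units) none was called. The SD of the log2 change was smaller at higher signal, at 0.71, 0.50 and 0.19 in these groups, while the trastuzumab arrays differed by a median of 0.13, 0.09 and 0.07. The median change was near 0 in each (-0.08, -0.15 and -0.0083). Signal and the share of calls moved together. The PBS array that sets these groups also enters each log2 change, so that the groups are not independent of the changes. A low reading on it both places a miRNA among the dim ones and raises its change. The part of dimness in the calls was not tested.

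**Figure D2:**
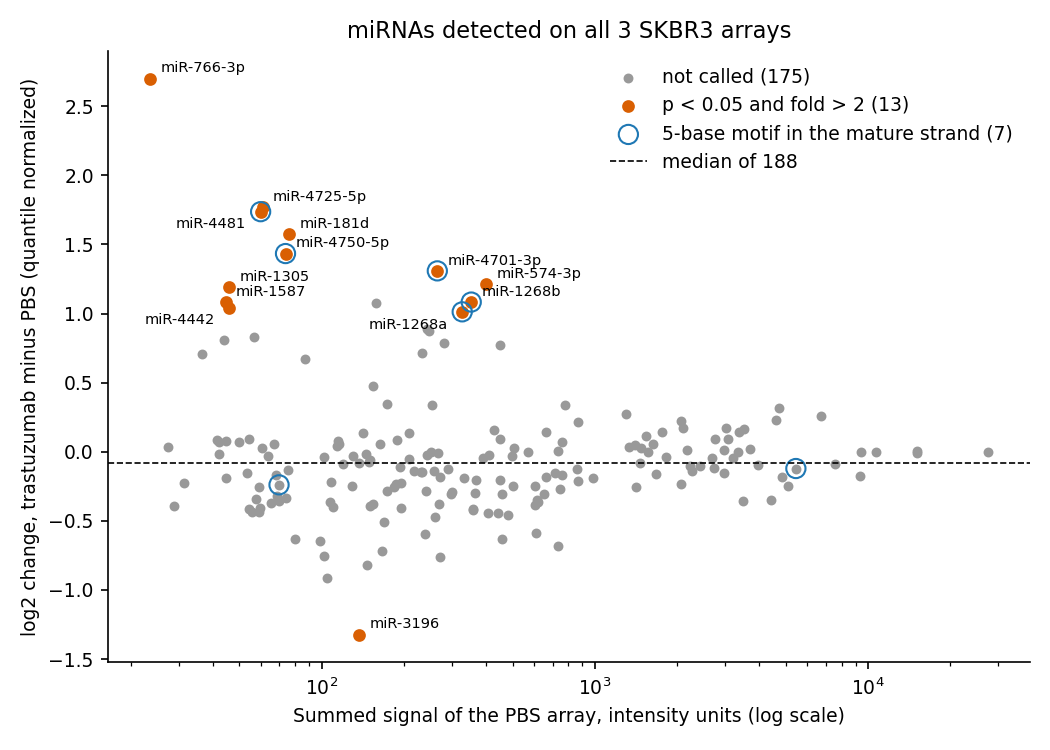
log2 change (trastuzumab minus PBS, quantile normalized) against the summed PBS signal (intensity units, log axis) for the 188 miRNAs, with the 13 past the study's thresholds in orange, the 7 that hold the bases GUGGU ringed and the median of -0.08 dashed. All calls lie at 399 units or below, and 5 of the 7 ringed miRNAs are among the increases, from which the motif was chosen. The PBS array gives the horizontal axis and also enters the change.

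miRNAs that entered the catalogue late made up 10 of the 13 calls. Of the 74 with a number above 1000, 9 were higher and 1 lower at the study's thresholds, and 17 (22.97%) had a log2 change above 0.5. Of the 114 with a number up to 1000, 3 were higher (miR-766-3p, miR-181d and miR-574-3p), none was lower, and 5 (4.39%) had a log2 change above 0.5. The medians were close, -0.02 and -0.11, beside -0.08 for all. The late ones differed by a wider spread, with an SD of 0.60 against 0.43.

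The called sequences were rich in G. Guanine made up a median of 54.5% of the bases in the 11 increased miRNAs with a sequence and 30.4% in all 159. Of the 50 richest in G (41.2% to 75% G) 7 were higher, of the 56 in the middle 1, and of the 53 poorest (up to 22.7% G) 3, with median changes of -0.08, -0.08 and -0.09. The 5 bases GUGGU, a motif chosen after the called sequences were seen and searched on the mature strand alone, with no test, stand in 47 of the 1692 array miRNAs with a sequence (2.78%) and in 7 of the 159 (4.40%). Of these 7, miR-4481, miR-4750-5p, miR-4701-3p, miR-1268b and miR-1268a were higher at the study's thresholds. The other 2, let-7b-5p (5440, 6921 and 6148 units, a log2 change of -0.12) and miR-497-5p (69.8, 102 and 81.2 units, -0.24), were not. The median change of the 7 was 1.08, against -0.09 for the rest of the 159, of which 6 (3.95%) were higher. As the motif was drawn from the called sequences, this contrast follows from the choice and is no evidence for the motif. The called ones are printed above, and the pair that was not called is shown here for comparison, with the seed in capitals.
let-7b-5p: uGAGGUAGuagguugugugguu
miR-497-5p: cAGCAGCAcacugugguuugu
No gain or loss of detection with a sequence held GUGGU, and the gain miR-4472 had no sequence to search. Among miRNAs detected on 1 or 2 arrays, 2 held it, miR-4483 and miR-140-5p, both detected on trastuzumab array 1 alone.

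The families showed the stable part of the profile. Let-7, known as a brake on RAS and HMGA2, was detected with 9 members, miR-98-5p included, that share the seed GAGGUAG. let-7a-5p, the brightest, gave 10644 units with PBS and 14935 and 12926 with trastuzumab, the same rank on all 3 arrays and so a log2 change of 0.00. The 9 changes ran from -0.23 (miR-98-5p) to 0.28 (let-7i-5p) with a median of 0.00, and none was called. The median lay 0.08 above that of all tested, and at -0.019 from it with 75th percentile scaling, so that the sign of this difference depends on the scaling.

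A representative of several families is shown, since their members are compared next. The seed is in capitals.
let-7a-5p: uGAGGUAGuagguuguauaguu
miR-17-5p: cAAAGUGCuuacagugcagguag
miR-16-5p: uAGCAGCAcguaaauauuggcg
miR-29c-3p: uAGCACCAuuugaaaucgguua
miR-18b-5p: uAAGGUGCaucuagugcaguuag
miR-148a-3p: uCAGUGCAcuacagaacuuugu

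The miR-17-92 cluster at chr13:91350605-91351391 (+ strand), a polycistron known to drive proliferation, had all 6 of its hairpins detected. miR-17-5p gave 1408, 1736 and 1620 units and a log2 change of 0.05, miR-20a-5p -0.04, miR-19b-3p -0.09 and miR-92a-3p -0.17. The exception was miR-18a-5p, with 239 units under PBS and 273 and 174 under trastuzumab, a change of -0.59 and an adjusted p of 0.326. Its relative miR-18b-5p, from the chain on chromosome X, gave 79.6, 88.5 and 75.8 units, a change of -0.63 and an adjusted p of 0.0515 (0.0219 with the spread of 6 arrays). The pair differs by A20U. Relative to all tested, the median of miR-18 was below 0 under all 6 settings of signal and scaling that were compared. Here and below, 75th percentile scaling and no scaling always give the same relative median, since they differ by a constant common to all miRNAs. The 5 members of the miR-17 seed AAAGUGC had a median of -0.0044, at -0.20 to 0.05, and none was called.

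miR-15a, miR-15b, miR-16, miR-195, miR-424 and miR-497 share the seed AGCAGCA and are known for targets among cell cycle and survival genes. Their 6 changes were spread more widely, with a median of -0.21. miR-16-5p gave 7554 units with PBS and 9726 and 9209 with trastuzumab, a change of -0.09. miR-195-5p gave 154, 297 and 301.4 units (0.48), while its neighbour miR-497-5p, less than 10 kb away on chromosome 17, had -0.24. miR-424-5p gave 610, 638 and 495 units (-0.59). None of the 6 passed either threshold, and their median relative to all tested turned from -0.13 to 0.0097 with background correction by normexp.

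The miR-23, miR-24 and miR-27 group comes from paired clusters on chromosomes 19 and 9. All 5 members were above PBS on both trastuzumab arrays, with log2 changes of 0.09 to 0.17. miR-24-3p, made by either cluster, gave 3382, 4931 and 4477 units. The miR-29 members, known to restrain collagen genes, had changes of 0.17 (miR-29a-3p), -0.11 (miR-29b-3p) and 0.32 (miR-29c-3p), and miR-26a-5p and miR-26b-5p of 0.14 and 0.21. Their medians were above that of all tested under all 6 settings, and no member was called.

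On the other side stood miR-99 and miR-100, miR-125, miR-130 and miR-301, miR-28 and miR-151a, and miR-148, all with medians below that of all tested under all 6 settings. miR-130b-3p gave 455, 453 and 413 units (-0.63, adjusted p = 0.0565) and miR-130a-3p 1818, 2293 and 2138 units (-0.04). miR-148a-3p, known to target DNMT1, gave 734 units with PBS and 708.1 and 632 with trastuzumab, a change of -0.68 ± 0.01 (SE) and an adjusted p of 0.054. miR-148b-3p gave 130, 184 and 168 units and -0.03. miR-148a-3p and miR-148b-3p have 1 seed and differ by C9U and U10C. miR-130b-3p, miR-148a-3p and miR-18b-5p had an adjusted p of 0.0219, 0.0382 and 0.0219 with the spread of 6 arrays, and of 0.118, 0.0613 and 0.283 with 75th percentile scaling.

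**Figure D3:**
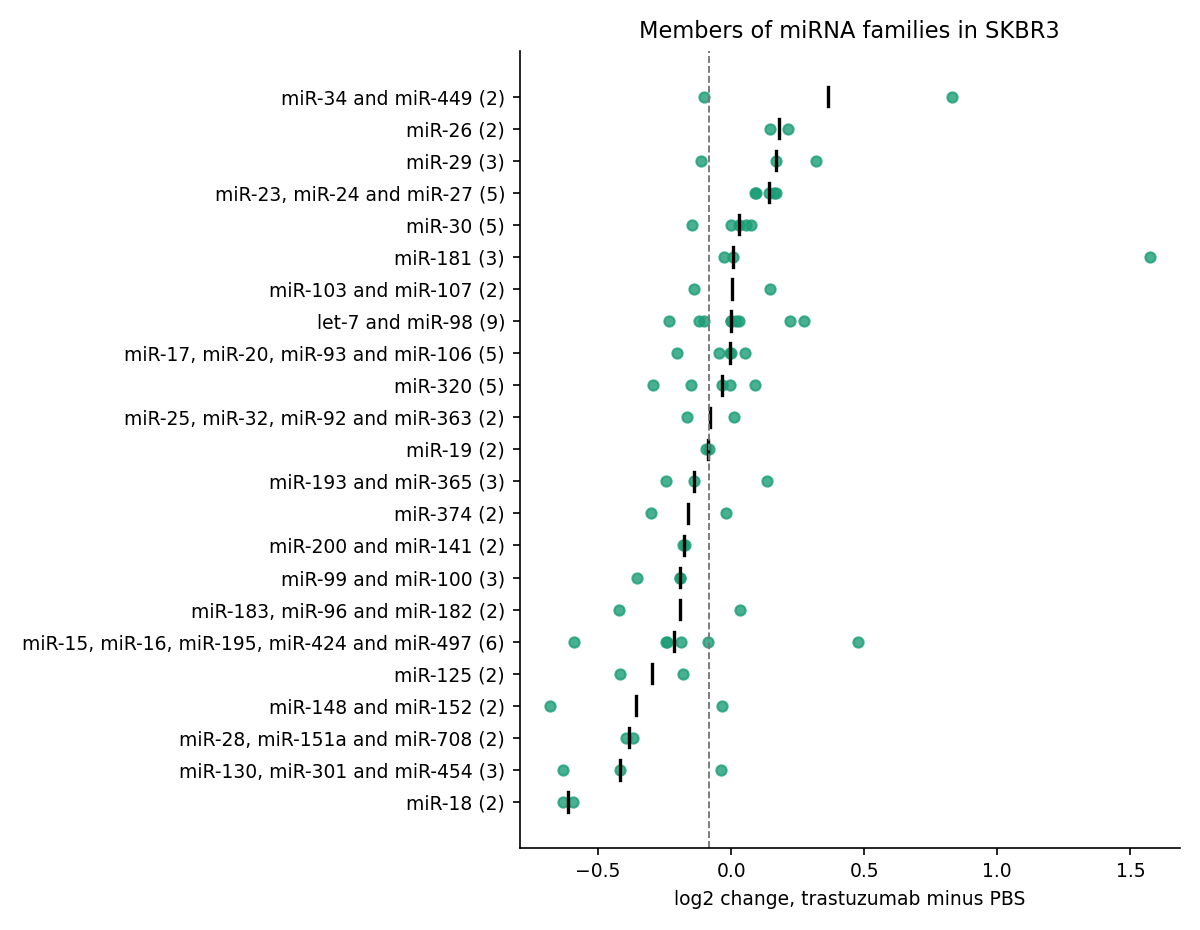
log2 changes (trastuzumab minus PBS, quantile normalized) of the members detected on all 3 arrays, 1 row per family with the number of members in brackets, black bars for the family medians and a dashed line at the median of all 188. Most members lie within 0.5 of 0, and miR-181d at 1.57 and miR-34b-5p at 0.83 stand apart from their families.

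Of 20 chains of hairpins on 1 strand with gaps up to 10 kb and at least 2 hairpins detected, the medians ran from -0.23 to 0.14 and none held a call at either threshold. The miR-200c and miR-141 chain on chromosome 12 had -0.18 and -0.17. The miR-100 and let-7a-2 chain, the miR-99b, let-7e and miR-125a chain and the miR-106b and miR-25 chain had medians of -0.10, -0.08 and 0.00. At 17q22-q23, a region often gained in breast cancer, 3 of 6 miRNAs were detected: miR-21-5p with 6735, 10522 and 9228 units (0.26, adjusted p = 0.368), miR-21-3p (-0.02) and miR-301a-3p (-0.42). Of the 15 miRNAs of the Xp11 chain only miR-660-5p was detected, with 68.7, 83.6 and 76.0 units and a change of -0.32.

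miR-4728 is encoded in an intron of ERBB2, the gene of the trastuzumab target. miR-4728-5p gave 44.7 units with PBS and 97.9 and 52.0 with trastuzumab, so that the trastuzumab arrays differed from each other by more than the second did from PBS. Its log2 change was 0.08 (95% confidence interval -2.89 to 3.05). miR-4728-3p was undetected on all 3 arrays. Among miRNAs reported to act on HER family mRNAs, miR-125a-5p (661, 864 and 771 units) had a change of -0.18, miR-125b-5p (357, 412 and 368) of -0.42, miR-331-3p (450, 607 and 541) of -0.20 and miR-7-5p (54.0, 88.6 and 74.0) of 0.10. Their adjusted p ranged from 0.0669 to 0.196, and miR-205-5p was undetected. For miR-125b-5p the adjusted p was 0.0382 with the spread of 6 arrays and 0.473 with 75th percentile scaling, and for miR-210 it was 0.0463 and 0.259. miR-210, the hypoxia miRNA, gave 602, 659 and 564 units (-0.38, adjusted p = 0.121). miR-200c-3p, which keeps the epithelial state by repressing ZEB1 and ZEB2, gave 4827, 5503 and 4953 units (-0.18, adjusted p = 0.072). Without normalization between the arrays the changes of miR-125a-5p, miR-125b-5p, miR-331-3p, miR-210 and miR-200c-3p turned positive, by 0.02 to 0.35, below the median shift of 0.36.

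Detection switches were then read from the flags. A gain is a miRNA detected on both trastuzumab arrays and not on the PBS array, and a loss is the reverse. There were 11 gains and 7 losses. The leading ones with a sequence are shown because no log2 change was fitted for them, with the seed in capitals and the gains first.
miR-574-5p: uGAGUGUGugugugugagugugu
miR-2392: uAGGAUGGgggugagaggug
miR-5090: cCGGGGCAgauugguguagggug
miR-3591-3p: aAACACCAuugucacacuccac
miR-762: gGGGCUGGggccggggccgagc
miR-184: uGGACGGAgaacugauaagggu
miR-3940-5p: gUGGGUUGgggcgggcucug

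miR-574-5p was at 220 and 236 units on the trastuzumab arrays and undetected on the PBS array. Set against the lowest detected PBS signal, it was 8.33-fold higher. By this ratio miR-2392 (231 and 207 units) was 8.11-fold higher, miR-5090 (205.4 and 214 units) 7.95-fold, miR-4472 (144 and 154 units) 5.29-fold and miR-3591-3p (163 and 106 units) 4.57-fold. The lowest PBS signal is that of miR-191-3p, with 4 probes and an error of 6.42 units. miR-574-5p has 2 probes, and miR-5001-5p, with 2 probes and 42.0 units on the PBS array, had an error of 13.8. A miRNA with fewer probes may thus go undetected at a higher signal, and these ratios are not firm lower bounds. In these 5, 43.3% to 83.3% of the spots stood well above background on the trastuzumab arrays, and 0 to 6.67% on the PBS array. The other 6 gains, miR-744-3p, miR-1281, miR-3923, miR-29c-5p, miR-4270 and miR-361-3p, had signals of 34.5 to 88.5 units and ratios of 1.89-fold to 2.96-fold. miR-29c-5p, at 63.1 and 63.2 units, is the other arm of miR-29c-3p.

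The losses were all dim. miR-762 gave 58.1 units with PBS and was undetected with trastuzumab, 2.95-fold lower when set against the lowest detected trastuzumab signals. miR-184 (49.0 units), miR-3940-5p (45.9), miR-5581-5p (43.4) and miR-5001-5p (42.0) had such ratios of 2.54-fold, 2.43-fold, 2.21-fold and 2.16-fold. miR-503-5p (31.3 units) had 1.80-fold, and miR-191-3p (19.3 units) no ratio, as it was the dimmest detected miRNA of its array. These ratios are not firm bounds either. On trastuzumab array 1 the lowest detected signal, 26.8 units, is that of miR-942, with 4 probes and an error of 8.64 units. On the same array miR-4665-3p, with 2 probes and 52.7 units, had an error of 17.3, and miR-762 has 2 probes. miR-762 and miR-5001-5p share the seed GGGCUGG. On the PBS array 3.33% to 23.3% of their spots stood well above background.

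Where a miRNA counted as detected with at least 1 in 3 of its spots well above background, there were 13 gains and 3 losses, of which 5 gains and none of the losses were the same miRNAs. A further 12 miRNAs were detected on trastuzumab array 1 alone, 1 on trastuzumab array 2 alone, 7 on PBS and trastuzumab array 1, and 1 on PBS and trastuzumab array 2. Array 1 was the brightest of the 3, and its part in the switches was not tested.

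**Figure D4:**
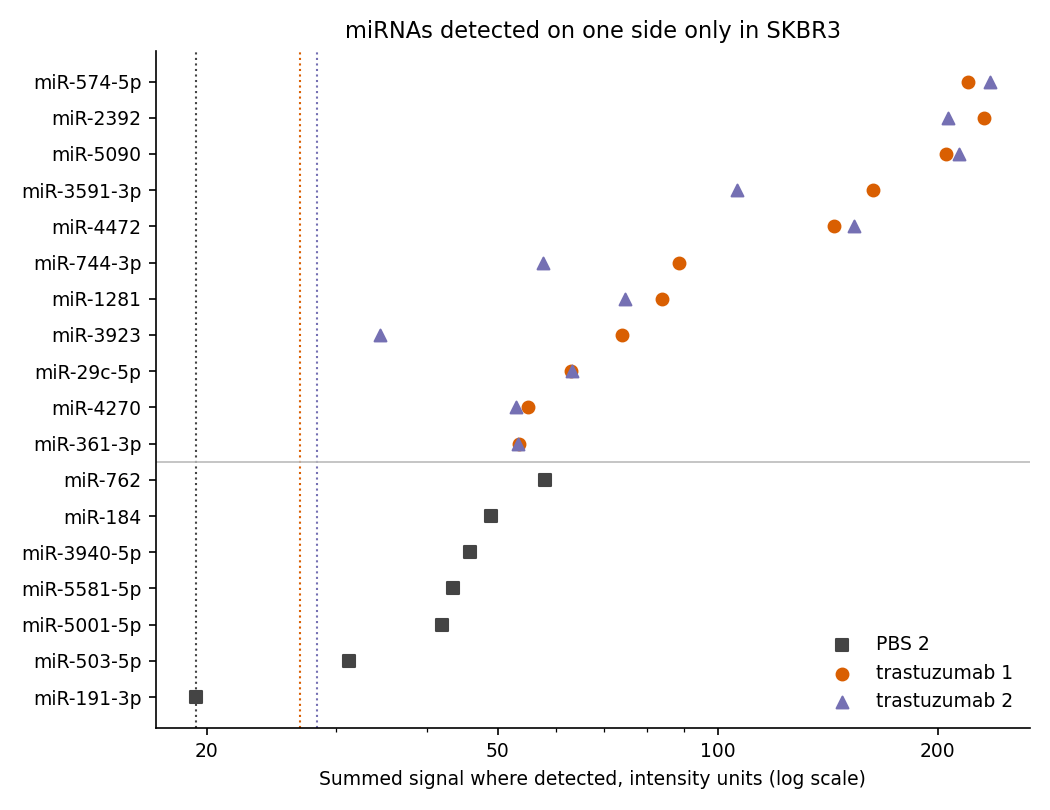
Summed signals (intensity units, log axis) of the 11 gains (above the grey line) and 7 losses (below it) on the arrays where they were detected, with dotted lines at the lowest detected signal of PBS array 2 (19.3), trastuzumab array 1 (26.8) and trastuzumab array 2 (28.3). 5 gains lie above 100 units on both arrays, and no loss exceeds 58.1 units.

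Whether SKBR3 and BT474 differed in their change was tested as an interaction in limma, on 6 arrays and the 175 miRNAs detected on all of them. At an adjusted p under 0.05, 5 miRNAs had a higher change in SKBR3 (2.86%) and 3 a lower one (1.71%). miR-766-3p, miR-574-3p and miR-34b-5p, which were higher in SKBR3, had changes of -0.14, -0.09 and -0.0020 in BT474. miR-4725-5p was higher in both lines and by 1.16 more in SKBR3. With 75th percentile scaling miR-374b-5p (adjusted p = 0.0658) and miR-30e-3p (0.21) no longer passed, and with the shared file counted under BT474, miR-4725-5p (0.0791) and miR-34b-5p (0.16). With any of the 4 trastuzumab arrays left out, 0 miRNAs passed in either direction, while the difference of miR-766-3p stayed between 2.65 and 3.05.

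Of the 12 increased miRNAs 11 could be measured in BT474. There 4 of the 11 were higher at an adjusted p under 0.05 in limma, beside 15 of all 175 (8.57%), and 7 had a change above 0.5, beside 22 of 175 (12.6%). miR-4750-5p, with 73.0 units on the BT474 PBS array and 208 and 352 on the trastuzumab arrays, had a change of 1.91 there (adjusted p = 0.0282). miR-1268a had 1.05 (adjusted p = 0.0282) and miR-4701-3p 0.90 (0.0346), which also passed. miR-1268b had 1.06 (adjusted p = 0.0509), miR-4481 1.502 (0.114) and miR-181d 1.04 (0.0728), which did not. The difference between the lines had an adjusted p of 0.235 to 0.969 for these 6, which does not show that they responded alike. miR-1305 went the other way in detection, at 59.96 units on the BT474 PBS array and undetected on both BT474 trastuzumab arrays. All 7 miRNAs with GUGGU were above 0 in BT474, beside 81 of all 175 (46.3%). The 5 of them that led to the motif being looked at had changes of 0.90 to 1.91, and the other 2, let-7b-5p and miR-497-5p, had 0.11 and 0.22. The BT474 arrays also lie with PBS in slide row 2 and trastuzumab in row 1.

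**Figure D5:**
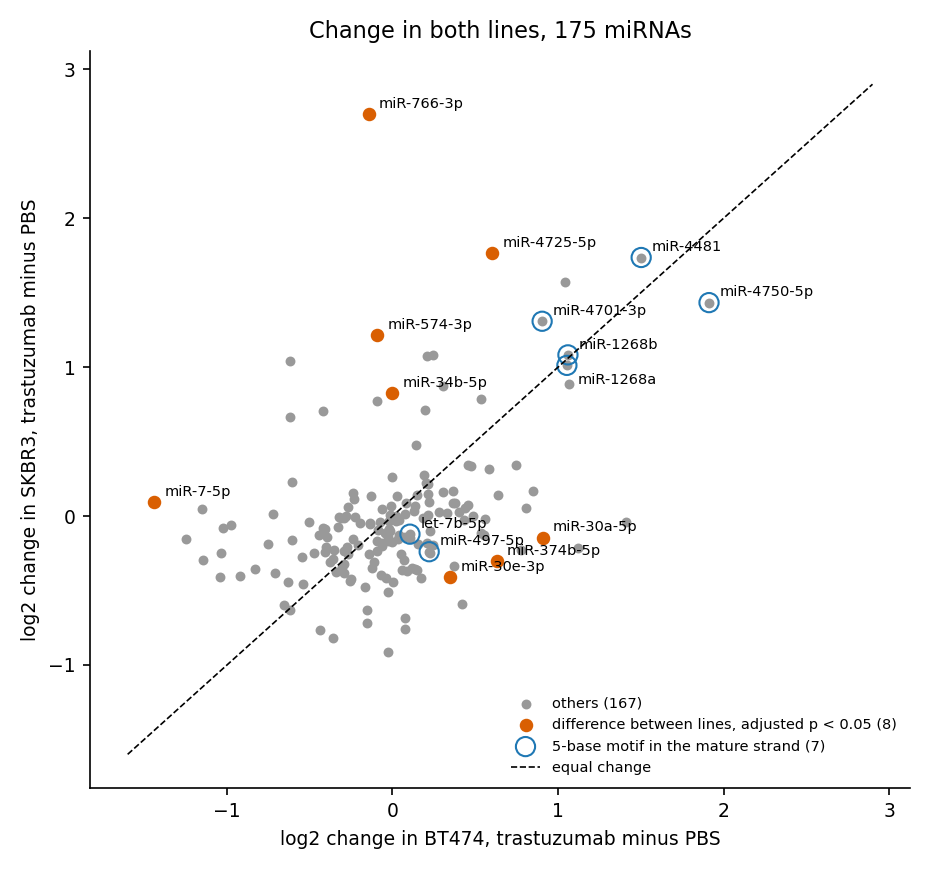
log2 change in SKBR3 against log2 change in BT474 (both trastuzumab minus PBS, quantile normalized within each line) for 175 miRNAs, with the 8 whose difference between the lines passed an adjusted p of 0.05 in orange, the 7 that hold GUGGU ringed and equal change dashed. miR-766-3p, miR-574-3p and miR-34b-5p lie near 0 on the BT474 axis, and miR-4481, miR-4750-5p, miR-4701-3p, miR-1268a and miR-1268b lie near the dashed line.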

How the data were processed

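SKBR3 total RNA, labelled with Cy3, was measured on one-colour arrays that hold the human miRNAs of miRBase release 19. The authors deposited the scanner output, in which spot signals and the summed signal per miRNA are intensities on a linear scale with a detection flag and no normalization between arrays, and a second file with quantile normalized log2 values, also the authors' own. Array control spots were left out. Of the deposited intensities, the summed signal of the 188 miRNAs detected on PBS replicate 2 and trastuzumab replicates 1 and 2 was log2 transformed, quantile normalized and tested with limma 3.58.1 (lmFit, eBayes) in R 4.3.3, with Benjamini-Hochberg adjustment over 188. Samples were grouped by their labels. SKBR3 against BT474 was tested as an interaction over 175 miRNAs. Ratios for undetected miRNAs were set against the lowest detected signal of each array, after normalization, whatever their number of probes. The small number of arrays sets the precision, and p-values measure the spread between these arrays. Named were the 10 largest increases and decreases past either threshold, the members of described families and loci, the 5 brightest gains and losses and a list of HER-related and marker miRNAs. miR-4442, miR-1268a, miR-34b-5p and the other miRNAs were added after their values were seen. The members and lists were chosen with earlier results of these data known. Alternatives were 75th percentile scaling, no scaling, quantile normalization of all 2006 miRNAs with a floor of 10, normexp (offset 50), the deposited log2 values, the 4 labelled arrays, arrays left out, miRNAs detected on at least 1 array, other estimates of the spread and the methods' t-test. normexp used the median spot signal, since it is the spot signal the files give. The fits were tested on simulated data, with 40 of 188 miRNAs changed in each of 20 runs and an adjusted p under 0.05. With quantile normalization 1.1%, 23% and 71.25% of log2 changes of 0.5, 1 and 2 were recovered, with means of 0.05, 2.45 and 17.7 false calls. With 75th percentile scaling 8.25%, 93.1% and 99.4% were recovered, with 1, 3.6 and 7.3 false calls. At changes of 1 and 2, and at 0.5 with 75th percentile scaling, the false calls were more than the adjusted threshold implies. With quantile normalization at 0.5 there were too few calls to tell. Summaries used pandas 2.3.3 and numpy 2.4.6 under Python 3.11.15, and figures matplotlib 3.10.9.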

Additional observations from a re-analysis of the deposited data

Results flagged for a closer look

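For 8 miRNAs the change with trastuzumab in SKBR3 differed from that in BT474, by the interaction term of limma at an adjusted p under 0.05. Each line has 1 PBS array and 2 trastuzumab arrays in this fit. With any trastuzumab array of either line left out, 0 miRNAs passed, in fits with fewer residual degrees of freedom. The difference was then 2.65 to 3.05 for miR-766-3p and 1.28 to 1.35 for miR-574-3p. No explanation was tested.

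miR-766-3p changed by 2.84 more in SKBR3 on the log2 scale (SE 0.30, adjusted p = 0.0469), as its SKBR3 signal was 23.6 with PBS and 252 and 181 with trastuzumab, and its BT474 signal 245 with PBS and 192 and 300.8 with trastuzumab. miR-574-3p changed by 1.31 more (adjusted p = 0.0409), with BT474 signals of 1564, 1449 and 1896. miR-4725-5p changed by 1.16 more (adjusted p = 0.0469), with BT474 signals of 223, 303 and 432. miR-34b-5p changed by 0.83 more (adjusted p = 0.0469), with BT474 signals of 136, 120 and 152.4. For miR-766-3p, miR-574-3p and miR-34b-5p, the BT474 PBS signal lay between the trastuzumab signals.

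miR-7-5p differed by 1.54 (adjusted p = 0.0262). The difference lies in BT474, where its signal was 633 with PBS and 224 and 273 with trastuzumab (log2 change -1.44), while SKBR3 had 54.0, 88.6 and 74.0 units (0.10). For miR-30a-5p the difference was -1.05 (adjusted p = 0.0469), from a change of -0.15 in SKBR3 and 0.91 in BT474. For miR-374b-5p it was -0.93 (adjusted p = 0.0469), from -0.30 and 0.63. For miR-30e-3p it was -0.75 (adjusted p = 0.0469), from -0.41 and 0.35. With 75th percentile scaling the difference of miR-30e-3p was -0.52 (adjusted p = 0.21) and that of miR-374b-5p -0.82 (0.0658). With the shared file counted under BT474, that of miR-34b-5p was 0.59 (adjusted p = 0.16) and that of miR-4725-5p 1.49 (0.0791).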

How the results depend on the processing

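No paired analysis was possible because the PBS and trastuzumab arrays used share a single replicate number. The replicate block was therefore not run, nor was a fit without PBS replicate 2, which leaves no PBS array. A fit with an SKBR3 trastuzumab array left out has 1 SKBR3 array per treatment. Its spread comes from the BT474 trastuzumab arrays alone, so that its counts do not measure the spread in SKBR3. For miRNAs higher at an adjusted p under 0.05, 5 as reported, the count was 22 with 75th percentile scaling, 24 without normalization, 15 with the spread of 6 arrays and 16 with a trend of the spread on the signal. It was 0 with whole-table quantile normalization and a floor of 10, with normexp, with the deposited log2 values, with the 4 labelled arrays, with miRNAs detected on at least 1 array, with the methods' t-test, and 0 to 0 when either trastuzumab array was left out. At an unadjusted p under 0.05, limma gave 24, 19, 27, 14 and 29 higher in the first 5 of these settings, the methods' t-test 11, and the fits with an array left out 15 to 18. For miRNAs lower, 0 as reported, the same settings gave 6, 1, 10 and 11 in the first group. At the study's thresholds, 12 were higher, against 22 without normalization, 2 with normexp, 7 with the methods' t-test and 5 to 6 with an array left out, of which 6 are without trastuzumab replicate 1 and 5 without replicate 2. Lower miRNAs numbered 1, miR-3196, against 0 without normalization, with normexp, with the deposited log2 values and with the methods' t-test. They numbered 3 with the 4 labelled arrays and 7 with miRNAs detected on at least 1 array. The fit with the spread of 6 arrays gave 0. Neither it nor the fits with an array left out measured miR-3196, which was undetected on a BT474 array. With the shared file counted as SKBR3 PBS, losses of detection numbered 1 in place of 7, and the spot rule gave 3, of which 0 were among the 7. All values with the 4 labelled arrays count that file as SKBR3 PBS, and it may be a BT474 control.

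Family medians relative to all tested moved with the setting. For let-7 the reported 0.08 became -0.019 with 75th percentile scaling, -0.019 without normalization, 0.11 with whole-table quantiles, 0.058 with normexp, -0.0094 with the deposited values, -0.11 with the 4 labelled arrays and 0.080 to 0.092 with an array left out. For the miR-17 seed 0.08 became -0.0098 and -0.0098 with those scalings, 0.11 with whole-table quantiles, -0.080 with normexp, -0.027 with the deposited values, -0.22 with the 4 labelled arrays and 0.06 to 0.10 with an array left out. For miR-15a, miR-15b, miR-16, miR-195, miR-424 and miR-497, -0.13 became -0.0060 and -0.0060, then -0.10, 0.0097, -0.019 and -0.20 in that order, and -0.11 to -0.080 with an array left out. For numbers above 1000, 0.06 kept its value with both scalings and became 0.017 with whole-table quantiles, 0.018 with normexp, 0.024 with the deposited values, 0.31 with the 4 labelled arrays and 0.031 to 0.042 with an array left out.

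The counts of differences between the lines, 5 and 3, became 9 and 14 with the shared file counted under BT474 and 0 to 0 with any array left out, against 41 to 65 in either direction at an unadjusted p under 0.05 in limma. Changes that turned sign were those of miR-34b-5p with normexp (-0.017); of miR-4728-5p with normexp (-0.072) and the deposited values (-0.13); of miR-7-5p with normexp (-0.11), the deposited values (-0.052) and the 4 labelled arrays (-0.997); of miR-21-5p with the 4 labelled arrays (-0.25); of miR-125a-5p (0.30), miR-125b-5p (0.13), miR-331-3p (0.35), miR-210 (0.019), miR-200c-3p (0.11) and miR-141-3p (0.059) without normalization; and of miR-125a-5p (0.067) and miR-200c-3p (0.13) with the 4 labelled arrays. The increases of the other 12 miRNAs and the decrease of miR-3196 kept their sign under every setting that measured them. The causes were not tested. Precision is limited by the single PBS array and, for the dim calls, by signals near the lowest detected one.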

Other observations

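miR-494 gave 1542 units with PBS and 4650 and 984 with trastuzumab, the widest gap between the trastuzumab arrays among the 188 miRNAs, 2.11 on the log2 scale after normalization beside an SD of 0.25 over all. The next widest were miR-4728-5p, miR-1973 (173, 433 and 224 units) and miR-3195 (113, 241 and 126 units), each with the higher signal on array 1. These 4 were named after their values were seen.

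The brightest miRNA of each array, miR-4454, was saturated in all 30 spots on all 3 arrays, at 27436.8, 27426.5 and 27426.8 units. miR-4284 had 15 saturated spots on each array, and miR-5100 had 6, 15 and 14, so that their levels have only a lower bound there. Of the 11 gains, miR-2392, miR-4472 and miR-29c-5p were also undetected on BT474 PBS array 2 and detected on both BT474 trastuzumab arrays, and miR-3923 and miR-4270 were detected on no BT474 array used.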
